A study of Mus musculus with 31 samples.

Results

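The interleukin 1 (IL-1) family and its receptors were followed here in mouse masseter muscle (MM), a chewing muscle, through 9 genes taken by name: the ligands Il1a, Il1b, Il33 and Il18, the antagonist Il1rn, the receptors Il1r1, Il1r2 and Il1rl1, and the processing enzyme Casp1. All 9 were among the 22609 gene symbols of each count table. MM came from 31 adult male C57BL/6J mice, 1 stranded poly(A) library per mouse, injected into the muscle of the left side with complete Freund's adjuvant (CFA) mixed with PBS, with collagenase type 2 (Col), an enzyme that digests the matrix of the muscle, or with vehicle (PBS). The CFA experiment held 3 mice at 1d, 3 mice at 5d and 3 vehicle-treated mice. The Col experiment held 4 mice at 2d, 3 at 6d and 4 at 12d after a dose of 10U, 3 vehicle-treated mice, and 4 mice in either group given 0.2U, which the labels call 1C and RPC. The mice carried no transgene and differed in the injected agent, the dose and the day of collection. Bulk RNA of dissected muscle holds all cells present, so fewer cells of a type and less RNA per cell cannot be told apart.

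IL-1α, encoded by Il1a, and IL-1β, encoded by Il1b, signal through the receptor encoded by Il1r1, which recruits Myd88 and Irak kinases and switches on NF-κB. IL-1β and IL-18 are made as precursors that caspase-1, encoded by Casp1, cuts to their active forms inside inflammasomes. Il1rn encodes the IL-1 receptor antagonist, which occupies the receptor without signalling, and Il1r2 encodes a decoy receptor that binds IL-1 without a signalling domain. IL-33 is a nuclear alarmin that stromal cells release on damage, and Il1rl1 encodes its receptor ST2, both as a membrane form and as a soluble decoy that counts per gene do not separate. In muscle, IL-1β is known from infiltrating myeloid cells and as a sensitizer of nociceptive nerve endings, and IL-33 from fibro-adipogenic progenitors.

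Depth was 14843778 to 29076671 reads on genes, with a median of 20834472. Muscle markers were present in every library, with a mean log2 CPM of the list of 11.04 to 13.55. Markers of tissue next to the muscle varied widely within groups, and the salivary gland list spanned -1.63 to 8.76 among the Col vehicle mice and -2.20 to 5.56 among the CFA vehicle mice. It was at 8.05 to 8.87 in the 5d post-CFA mice and at -3.82 to -3.22 in the 6d post-10U mice. The epidermis list was at 2.20 to 5.36 in the 1C group, above every Col vehicle mouse (0.40 to 1.84), and at 0.95 to 2.75 in the RPC group. The part of skin in the values of the 1C group was not tested. Reads that fell on more than 1 gene made up 0.675 to 0.875% of assigned reads in the 11 libraries of 10U Col and 0.147 to 0.317% in the other 20, Col vehicle included. A difference in counting and the effect of 10U Col cannot be told apart from this share.

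In the mm9 build, Il1a (chr2:129125346-129135708), Il1b (chr2:129190306-129196875) and Il1rn (chr2:24192373-24207014) lie on chromosome 2, and Il1r2 (chr1:40141613-40182064), Il1r1 (chr1:40281925-40373043) and Il1rl1 (chr1:40486415-40522260) lie in this order on chromosome 1, with Il1rl2 between Il1r1 and Il1rl1. Casp1 (chr9:5298517-5307265) and Il18 (chr9:50383378-50389942) lie on chromosome 9 and Il33 (chr19:29999604-30035194) on chromosome 19. All values below cover the exons of these genes. The 250 bases before the transcription start of the 4 members that passed a test are printed because these genes fell together or singly between days of 10U Col. The sequences are those of RefSeq in GRCm38.p6, in which all 9 members had a promoter entry, and are read 5′ to 3′ along the gene. Capitals mark matches on either strand to the TATA box TATAAA, to the C/EBP motif TTGCNNAA, to the PU.1 motif AGGAAGT or to the κB consensus.
Il1b, chr2:129371140-129371389, - strand: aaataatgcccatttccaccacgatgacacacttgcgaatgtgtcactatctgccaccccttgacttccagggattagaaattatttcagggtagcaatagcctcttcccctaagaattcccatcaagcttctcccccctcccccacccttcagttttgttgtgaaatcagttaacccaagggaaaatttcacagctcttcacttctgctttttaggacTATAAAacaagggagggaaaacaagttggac
Il1rn, first start, chr2:24336610-24336859, + strand: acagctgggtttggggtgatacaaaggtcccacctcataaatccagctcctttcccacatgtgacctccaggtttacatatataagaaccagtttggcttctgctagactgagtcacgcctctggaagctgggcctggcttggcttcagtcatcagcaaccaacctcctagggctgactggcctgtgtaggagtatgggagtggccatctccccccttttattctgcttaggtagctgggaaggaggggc
Il1rn, second start, chr2:24345041-24345290, + strand: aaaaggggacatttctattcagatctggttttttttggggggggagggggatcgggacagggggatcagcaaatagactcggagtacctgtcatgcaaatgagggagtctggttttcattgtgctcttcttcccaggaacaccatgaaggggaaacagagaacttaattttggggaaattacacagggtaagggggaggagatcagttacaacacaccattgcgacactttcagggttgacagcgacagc
Il1r2, chr1:40085843-40086092, + strand: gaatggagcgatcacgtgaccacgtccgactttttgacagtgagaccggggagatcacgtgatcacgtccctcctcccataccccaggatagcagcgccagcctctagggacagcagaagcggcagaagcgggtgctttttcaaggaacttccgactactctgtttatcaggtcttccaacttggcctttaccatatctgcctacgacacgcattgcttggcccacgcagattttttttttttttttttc
Il1rl1, first start, chr1:40429320-40429569, + strand: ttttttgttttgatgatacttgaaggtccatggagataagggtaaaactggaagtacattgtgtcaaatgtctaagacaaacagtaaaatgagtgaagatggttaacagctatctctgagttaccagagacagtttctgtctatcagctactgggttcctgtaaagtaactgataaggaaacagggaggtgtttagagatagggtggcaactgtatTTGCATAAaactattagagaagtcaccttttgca
The TATA box lay 31 bases before the start of Il1b, and TATAAA was present in 12.3% of 32536 mouse promoter windows of this length. The C/EBP motif lay 34 bases before the first start of Il1rl1 and was present in 9.57% of windows. Neither the PU.1 motif (7.70% of windows) nor the κB consensus (3.92%) was present in the 5 windows shown. Il1rn has a further listed start besides these and Il1rl1 another, which counts per gene do not separate.

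Transcripts of Il1b and Il1rn stood at low levels in vehicle-treated MM and were higher in most but not all mice at 1d post-CFA and 2d post-10U Col and in all 3 at 6d post-10U Col, and Il1rn also in 2 of 3 mice at 5d post-CFA. The decoy receptor Il1r2 was high at 2d post-10U Col and low at 6d and 12d. Il1r1 and Il33 were expressed in every mouse and reached their highest values in single mice at 1d post-CFA and 2d post-10U Col. Il18 stayed within 0.652 to 2.87 CPM and Casp1 within 0.368 to 6.10 CPM in all mice. Per length, the members ordered by median RPKM over all 31 mice as Il33 (6.22), Il1r1 (4.55), Il18 (2.03), Casp1 (1.79), Il1r2 (1.03), Il1rn (0.764), Il1b (0.479), Il1rl1 (0.475) and Il1a (0.111). The ranges of neighbours in this order overlapped, and the order did not hold within groups. Il1b had a mean of 12.5 RPKM at 1d post-CFA against 1.9 RPKM for Il18, and Il1r2 had 6.27 RPKM at 2d post-10U Col against 2.54 RPKM. This did not hold in every mouse. Mouse 2 at 1d post-CFA had Il1b at 0.479 RPKM and Il18 at 1.17 RPKM. Mouse 4 at 2d post-10U Col had Il1r2 at 1.15 RPKM and Il18 at 2.03 RPKM.

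**Figure D1:**
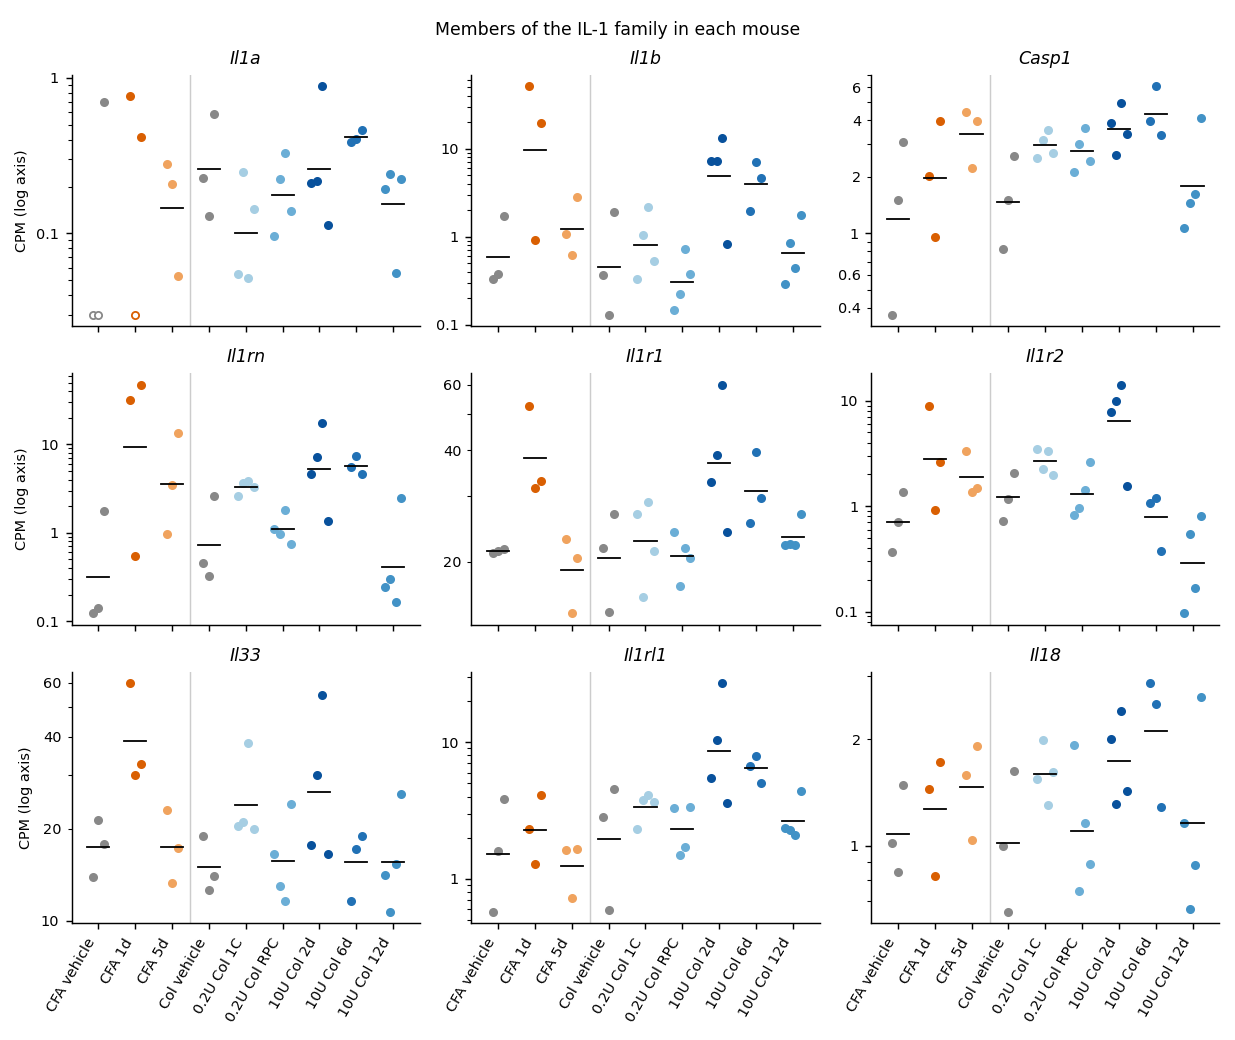
Each point is the CPM of 1 mouse on a log axis, by group, and black bars are geometric means where every mouse had counts. Open points at the foot of the Il1a panel are mice with 0 counts. Il1b reached 51.5 CPM in 1 mouse at 1d post-CFA, and Il1r2 stood at 7.88 to 14.2 CPM in 3 of 4 mice at 2d post-10U Col.

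Against its own vehicle group, no member passed the test in any of the 7 comparisons (quasi-likelihood test of edgeR, with p-values adjusted by Benjamini-Hochberg over every tested gene). At 1d post-CFA 0 of 8 tested members passed, as did 0% of the 13944 genes tested, although 5 members and 588 genes (4.22%) had an unadjusted p under 0.05. At 5d post-CFA 0 of 8 passed, against 1.11% of all genes, and 1 member had an unadjusted p under 0.05, as had 14.0% of genes. In the 1C group of 0.2U Col 0 of 8 passed, against 0% of genes, with 2 members and 1820 genes (12.6%) under 0.05 unadjusted. In the RPC group 0 of 7 passed, against 0% of genes, and 0 members but 1924 genes (13.5%) were under 0.05 unadjusted. At 2d post-10U Col 0 of 8 passed, against 2.22% of genes, with 6 members and 33.3% of genes under 0.05 unadjusted. At 6d post-10U Col 0 of 9 passed, where 27.3% of genes did, with 3 members and 43.4% of genes under 0.05 unadjusted. At 12d post-10U Col 0 of 8 passed, against 1.23% of genes, with 0 members and 17.4% of genes under 0.05 unadjusted. DESeq2 called 4 of 8 members at 2d, where it called 23.1% of all genes, 3 of 9 at 6d, where it called 35.6%, and 0 in each of the other 5 comparisons. Il1b had under 10 counts in 2 of the 3 mice of each vehicle group, so it was tested against vehicle only where the treated mice had more.

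Direction was more uniform than the calls. All 8 tested members had a value above that of the vehicle group at 1d post-CFA (median log2 fold change 1.03, with all genes at -0.01), at 2d post-10U Col (1.65, with all genes at 0.02) and in the 1C group (0.65, with all genes at 0.01). At 6d post-10U Col 8 of 9 did (1.0, with all genes at 0.01). The medians were 0.71 at 5d post-CFA, 0.14 in the RPC group and 0.14 at 12d post-10U Col. The 5 comparisons of Col groups share their 3 vehicle-treated mice, and the CFA comparisons share theirs. Il1b and Il1rn in both experiments, Il1r2 and Casp1 with CFA and Il1rl1 with Col met the count minimum only through treated mice. The shared direction is therefore no support for a rise of the family. Untested Il1a had a mean of 0.125 CPM in 1C and 0.357 CPM at 2d, against 0.316 CPM in Col vehicle mice. At 1d post-CFA its mean was 0.395 CPM, against 0.235 CPM in vehicle mice.

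**Figure D2:**
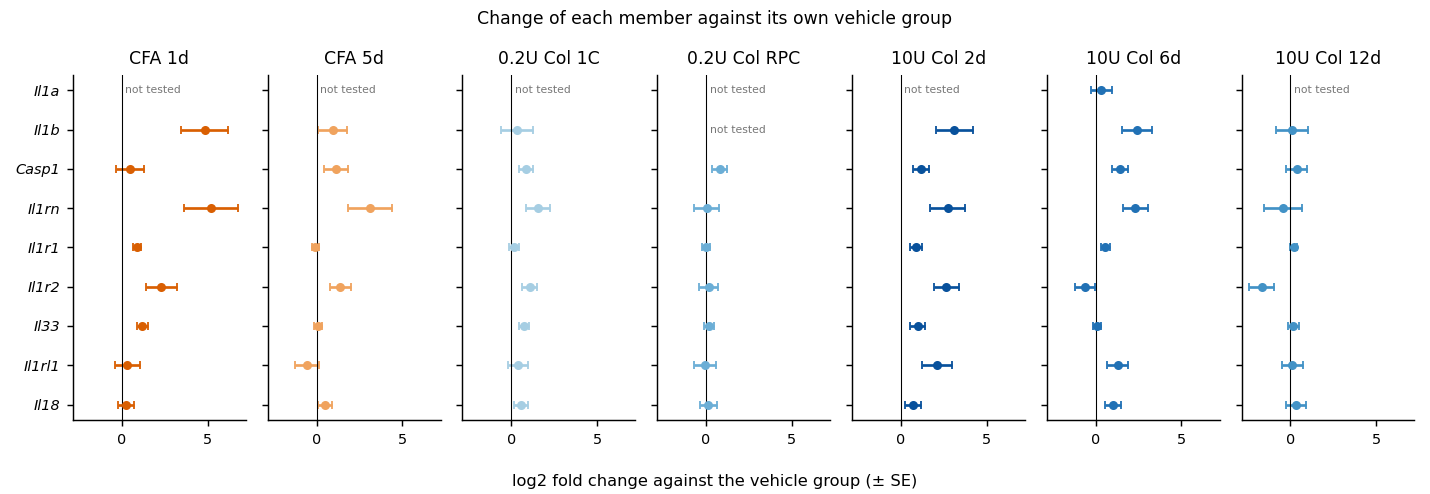
Points are log2 fold changes of each member against the vehicle group of its own experiment with SE bars, 1 panel per comparison, and members with too few counts are marked as not tested. Il1b and Il1rn lay at 4.83 and 5.20 at 1d post-CFA, Il1r2 at 2.65 at 2d and -1.66 at 12d post-10U Col, and no value passed the adjusted test.

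Some members separated the groups completely, with the lowest treated mouse above the highest vehicle mouse. This held for Il1r1 and Il33 at 1d post-CFA (3.46% of tested genes did so), for Il1rn and Il33 in the 1C group (4.35%) and for Casp1 at 2d post-10U Col (10.7%). It held for Il1b, Il1rn, Il1rl1 and Casp1 at 6d post-10U Col (25.1%). No member was separated at 5d post-CFA (12.0%), in the RPC group (4.21%) or at 12d post-10U Col (8.55%).

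Il1b, the IL-1β gene, was read at 51.5, 0.913 and 19.3 CPM in the 3 mice at 1d post-CFA and at 0.327, 0.375 and 1.70 CPM in the CFA vehicle mice. The highest and lowest mouse at 1d differed 56.4-fold, and 1 of the 3 lay within the vehicle range. The log2 fold change was 4.83 ± 1.35 (SE), with an adjusted p of 0.924. At 5d post-CFA Il1b stood at 1.07, 0.624 and 2.81 CPM, which overlapped the vehicle mice. Between 1d and 5d post-CFA it differed by -3.92 ± 1.23 on the log2 scale, which did not pass (edgeR adjusted p = 0.128). That difference passed with DESeq2 (-3.97, adjusted p = 0.0345), with 1 fit over 31 libraries and without mouse 2 at 1d (adjusted p = 0.00602).

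After 10U Col, Il1b stood at 7.30, 7.15, 13.1 and 0.825 CPM at 2d, at 1.97, 6.98 and 4.63 CPM at 6d and at 0.289, 0.845, 0.443 and 1.74 CPM at 12d, and at 0.364, 0.130 and 1.90 CPM in Col vehicle mice. At 2d 3 of 4 mice and at 6d all 3 lay above the highest vehicle mouse, and at 12d none did. The log2 fold change against vehicle was 3.10 ± 1.08 at 2d (adjusted p = 0.0993) and 2.43 ± 0.87 at 6d (adjusted p = 0.0709). At 2d it passed without mouse 4 (adjusted p = 0.0191), as did 36.3% of all genes. With mouse 4 kept it passed in 4 of 7 alternatives, DESeq2 among them. At 6d it passed without vehicle mouse 3 (4.08, adjusted p = 0.01), as did 41.7% of all genes. With that mouse kept it passed in 2 of 7 alternatives, DESeq2 among them. From 6d to 12d Il1b fell by 2.41 ± 0.63 on the log2 scale (adjusted p = 0.0313), and the groups did not overlap. In the 0.2U groups it stayed at 0.330 to 2.18 CPM in 1C and 0.145 to 0.716 CPM in RPC, where it had too few counts to be tested. An antisense gene, Gm14047, shares 25 bp of exons with Il1b, and it had at most 6 counts in any library.

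Il1a, the IL-1α gene, was close to the detection limit throughout. Its highest count was 20, in 1 mouse at 2d post-10U Col (0.887 CPM), and 3 mice had 0 counts, 1 at 1d post-CFA and 2 of the CFA vehicle group. A count of 0 allows up to 3 counts, 0.123 to 0.141 CPM in those libraries. Il1a had enough counts to be tested against vehicle only at 6d post-10U Col, where the 3 mice stood at 0.385, 0.406 and 0.459 CPM and Col vehicle mice at 0.228, 0.130 and 0.589 CPM. At 12d it was at 0.0553 to 0.242 CPM, below every mouse at 6d, with 1 to 5 counts per mouse. The antisense gene Gm14023 shares 222 bp of exons with Il1a and had 2 to 30 counts per library. If the counting ignored strand, reads on the shared exons may have been set aside and counted for neither gene.

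Casp1, the caspase that matures IL-1β and IL-18, was at 3.89, 2.62, 4.92 and 3.38 CPM at 2d and at 3.98, 6.10 and 3.34 CPM at 6d post-10U Col, and at 0.819, 1.5 and 2.58 CPM in Col vehicle mice. All 7 treated mice lay above the highest vehicle mouse, by a small margin in the lowest. The log2 fold change was 1.18 ± 0.46 at 2d (adjusted p = 0.124) and 1.43 ± 0.48 at 6d (adjusted p = 0.0593). Without vehicle mouse 3 the value at 6d was 1.93 with an adjusted p of 0.0184, and DESeq2 gave 0.0223. At 12d 3 mice were at 1.06 to 1.61 CPM and the other at 4.10 CPM, and the change from 6d was -1.10 ± 0.47 (adjusted p = 0.112). Casp1 was at 2.53 to 3.53 CPM in the 1C group, with a change of 0.86 ± 0.43 (adjusted p = 0.449), and at 2.12 to 3.64 CPM in the RPC group. In the CFA experiment, vehicle mice alone spanned 0.368 to 3.08 CPM, which covered 2 of the 3 mice at 1d and 1 of the 3 at 5d.

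Il1rn, the receptor antagonist, followed Il1b in its wide spread at 1d post-CFA, with 31.9, 0.548 and 47.3 CPM against 0.123, 0.141 and 1.78 CPM in vehicle mice. Again the same mouse lay within the vehicle range. The log2 fold change was 5.20 ± 1.57 (adjusted p = 0.924). At 5d post-CFA it stood at 0.977, 3.49 and 13.3 CPM, a change of 3.12 ± 1.26 (adjusted p = 0.326). It passed without vehicle mouse 3 (5.54, adjusted p = 0.0136), as did 15.6% of all genes, and with replicate numbers as a block (adjusted p = 0.0481).

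After 10U Col, Il1rn was at 4.67, 7.15, 17.5 and 1.35 CPM at 2d, at 5.48, 7.35 and 4.63 CPM at 6d and at 0.241, 0.302, 0.166 and 2.45 CPM at 12d. The Col vehicle mice were at 0.455, 0.326 and 2.58 CPM. All 3 mice at 6d and 3 of 4 at 2d were above every vehicle mouse, while none at 12d was. The change against vehicle was 2.73 ± 1.02 at 2d (adjusted p = 0.112) and 2.32 ± 0.73 at 6d (adjusted p = 0.0503), and the latter passed with DESeq2 (0.0057) and without vehicle mouse 3 (3.84, adjusted p = 0.00459). From 6d to 12d Il1rn fell by 2.81 ± 0.81 on the log2 scale (adjusted p = 0.0407). In the 1C group of 0.2U Col the 4 mice agreed closely, at 2.58, 3.69, 3.84 and 3.29 CPM, the lowest of them level with the highest vehicle mouse to 3 digits. The change of 1.56 ± 0.69 did not pass (adjusted p = 0.402) and reached 3.09 without vehicle mouse 3. The RPC group was at 0.748 to 1.82 CPM, within the vehicle range.

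The balance of antagonist to agonist was taken within each mouse as the log2 ratio of Il1rn to Il1b reads per length, with 0.5 counts added to each, so that library depth cancels. In the Col vehicle mice it was -0.45, 0.39 and -0.31, close to equal amounts. In the 1C group it was 2.12, 1.04, 0.06 and 1.85, and in the RPC group 2.00, 1.20, 0.56 and 0.21. The mean difference from vehicle was 1.39 in 1C and 1.11 in RPC, each with p = 0.114 in an exact two-sided permutation test whose smallest possible p is 0.0571 with 4 against 3 mice. At 2d post-10U Col the ratio lay at -1.39 to -0.05 and at 12d at -2.15 to -0.26, with differences of -0.51 (exact permutation p = 0.286) and -1.23 (exact permutation p = 0.171). At 6d it was 0.72, -0.68 and -0.75, a difference of -0.11 (exact permutation p = 0.8). The sign of this last value turned, to at most 0.14, when any of 3 single mice was left out.

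The CFA vehicle mice had a ratio of -2.03, -2.03 and -0.69, that is, more Il1b than Il1rn per length. It was -1.44, -1.46 and 0.54 at 1d and -0.88, 1.68 and 1.49 at 5d post-CFA. The mean difference was 0.80 at 1d (exact permutation p = 0.5) and 2.35 at 5d (exact permutation p = 0.2), where 3 against 3 mice cannot go below 0.1. Adjusted over the 7 comparisons, the p-values of this ratio were 0.35 to 0.8. The ratio is imprecise where counts were low. Il1b had 2 to 8 counts in 4 of the 6 vehicle mice and 3 counts in the RPC mice with the highest ratios, and Il1rn had 3 to 5 counts in 3 of 4 mice at 12d post-10U Col.

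**Figure D3:**
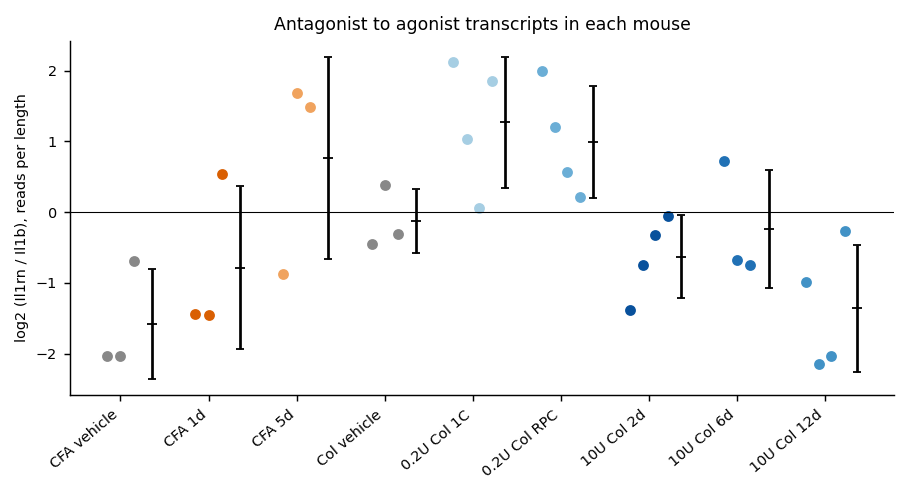
Points are the log2 ratio of Il1rn to Il1b in each mouse, per length, and black bars are means with SD. The 8 mice given 0.2U Col lay at 0.06 to 2.12, and the 4 mice at 12d post-10U Col at -2.15 to -0.26.

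Il1r1, the signalling receptor, stayed within 14.5 to 60.1 CPM in all mice. CFA vehicle mice stood at 21.1, 21.4 and 21.6 CPM and mice at 1d post-CFA at 52.6, 31.6 and 33.1 CPM, all above vehicle. The change was 0.87 ± 0.24 on the log2 scale (adjusted p = 0.924). At 5d it was at 23.0, 14.5 and 20.4 CPM, below every mouse at 1d, and the difference from 1d was -0.95 ± 0.27 (adjusted p = 0.0982). That difference passed without mouse 2 at 1d (-1.13, adjusted p = 0.0451) and with DESeq2.

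After 10U Col, Il1r1 was at 32.7, 38.8, 60.1 and 24.1 CPM at 2d and at 25.4, 39.6 and 29.7 CPM at 6d, and Col vehicle mice were at 21.8, 14.6 and 26.8 CPM. In each of these groups 1 mouse lay within the vehicle range. The change was 0.89 ± 0.34 at 2d (adjusted p = 0.115, and 0.0334 without mouse 4) and 0.57 ± 0.27 at 6d (adjusted p = 0.141, and 0.0469 without vehicle mouse 3). At 12d 3 mice were within 22.1 to 22.3 CPM and 1 at 26.9 CPM, and the difference from 6d was -0.42 ± 0.16 (adjusted p = 0.0892). The 0.2U groups covered 16.0 to 29.0 CPM in 1C and 17.2 to 24.0 CPM in RPC, much as their vehicle.

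Il1r2, the decoy receptor, was high early after 10U Col and low later. At 2d it was at 7.88, 9.93, 14.2 and 1.54 CPM, at 6d at 1.07, 1.19 and 0.376 CPM and at 12d at 0.0964, 0.543, 0.166 and 0.801 CPM. Col vehicle mice were at 0.728, 1.17 and 2.08 CPM. At 2d 3 of 4 mice were above the vehicle mice and every mouse at 6d was below every mouse at 2d. At 12d 3 of 4 mice were below the lowest vehicle mouse, in a group with 2 to 18 counts per mouse.

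From 2d to 6d Il1r2 fell by 3.25 ± 0.76 on the log2 scale (edgeR adjusted p = 0.0414), the only member of 9 tested to pass between these days, where 4.05% of genes passed in the lower direction. It was also the only member whose groups did not overlap (10.7% of genes). The call was lost without any 1 of 6 of the 7 mice (adjusted p of up to 0.159) and held without mouse 4 at 2d (-3.60, adjusted p = 0.00132). With salivary gland and epidermis scores as covariates the difference was -2.55 and did not pass (adjusted p = 0.111). Against vehicle the change was 2.65 ± 0.74 at 2d (adjusted p = 0.0686) and -1.66 ± 0.73 at 12d (adjusted p = 0.293). At 2d it passed with DESeq2, with 1 fit over 31 libraries and without mouse 4 (2.99, adjusted p = 0.00395).

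In the CFA experiment Il1r2 was at 8.83, 0.913 and 2.65 CPM at 1d, 3.30, 1.35 and 1.48 CPM at 5d and 0.368, 0.703 and 1.37 CPM in vehicle mice. At 1d 2 of 3 mice were above the vehicle range (log2 fold change 2.31 ± 0.88, adjusted p = 0.924). At 5d the change was 1.38 ± 0.60 (adjusted p = 0.373), and 2.06 without vehicle mouse 3 (adjusted p = 0.0356). In the 1C group it was at 3.52, 2.24, 3.32 and 1.96 CPM, a change of 1.06 ± 0.46 (adjusted p = 0.397), and 3 of 4 mice were above the vehicle range. The RPC group, at 0.819 to 2.62 CPM, overlapped the vehicle mice.

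Il33, the alarmin, was at 59.8, 30.1 and 32.6 CPM at 1d post-CFA and at 13.9, 21.4 and 17.9 CPM in CFA vehicle mice. All 3 mice were above vehicle, by 1.20 ± 0.31 on the log2 scale (adjusted p = 0.924). At 5d the mice were at 23.0, 13.3 and 17.3 CPM, below every mouse at 1d, with a difference from 1d of -1.12 ± 0.32 (adjusted p = 0.103, and 0.0409 without mouse 2 at 1d). Il1r1 and Il33 were the only members of 8 tested whose 1d and 5d groups did not overlap, where 13.8% of genes were lower without overlap. No member passed the test between these days, and 0.990% of genes passed in the lower direction.

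In the Col experiment Il33 was at 20.5, 21.0, 38.3 and 19.9 CPM in the 1C group and at 19.0, 12.6 and 14.0 CPM in vehicle mice. All 4 mice were above vehicle, the change being 0.74 ± 0.30 (adjusted p = 0.374). The same 4 mice were above vehicle in the epidermis list. At 2d post-10U Col the mice spread over 17.7, 30, 54.7 and 16.5 CPM, of which 2 were above the vehicle range (0.98 ± 0.43, adjusted p = 0.151). At 6d, at 11.6, 17.2 and 18.9 CPM, they did not exceed it, and the difference from 2d was -0.91 ± 0.43 (adjusted p = 0.224). The RPC group and the 12d group spanned 11.6 to 24.2 and 10.7 to 25.9 CPM.

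Il1rl1, the IL-33 receptor, was at 5.46, 10.4, 27.0 and 3.60 CPM at 2d, 6.72, 7.96 and 5.05 CPM at 6d and 2.36, 2.29, 2.10 and 4.41 CPM at 12d post-10U Col. Col vehicle mice were at 2.82, 0.587 and 4.57 CPM. All 3 mice at 6d and 3 of 4 at 2d were above every vehicle mouse, and none at 12d was. The change was 2.11 ± 0.86 at 2d (adjusted p = 0.133) and 1.28 ± 0.61 at 6d (adjusted p = 0.147, and 0.0452 without vehicle mouse 3). From 6d to 12d Il1rl1 fell by 1.21 ± 0.31 on the log2 scale (adjusted p = 0.0288), with no overlap. In the other groups it lay at 2.31 to 4.10 CPM in 1C, 1.49 to 3.36 CPM in RPC, 1.28 to 4.08 CPM at 1d and 0.728 to 1.64 CPM at 5d post-CFA, and CFA vehicle mice spanned 0.572 to 3.82 CPM.

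Between 6d and 12d post-10U Col, Il1b, Il1rn and Il1rl1 were thus 3 of 8 tested members that fell and passed, where 13.0% of genes did so. The same 3 members had groups without overlap, as 19.3% of genes did, and so had Il1a, which was too low to be tested. All 3 calls passed with DESeq2. They were lost with 1 fit over 31 libraries (adjusted p of 0.0761 for Il1b), and with tissue scores as covariates (0.0538 for Il1b). The larger adjusted p of both fits was 0.0766 for Il1rn and 0.181 for Il1rl1. At most 1 of the 3 passed without any single mouse other than mouse 4 at 12d. Without mouse 4 at 12d 6 members passed, as did 54.2% of all genes. Il1b, Il1rn and, between 2d and 6d, Il1r2 met the count minimum only through the days on which they were higher, and their calls held with no such filter. None of the 9 members tested passed for a different change at 2d post-10U Col than at 1d post-CFA (0.0946% of genes did), and no member passed between both vehicle groups (0.0426% of genes did). The largest of the interaction values were -2.50 ± 1.85 for Il1rn and 1.77 ± 1.21 for Il1rl1, with SEs that leave room for differences of several fold.

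Il18, the other caspase-1 substrate, had a narrow range as well. It ranged from 0.652 to 2.87 CPM over all 31 mice, and its change at 6d post-10U Col, 2.87, 2.51 and 1.29 CPM against 1.0, 0.652 and 1.63 CPM, was 1.0 ± 0.48 (adjusted p = 0.149). In the other 6 comparisons with vehicle its unadjusted p was 0.161 or above. It rested on 10 to 74 counts per library.

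Single mice stood apart in the same way across members. Vehicle mouse 3 of each experiment had the highest Il1b, Il1rn, Casp1 and Il1a of its group. The neutrophil list (S100a8, S100a9, Csf3r and others) was at 5.76 in vehicle mouse 3 of the CFA experiment, against -1.43 and -0.54 in the others. It was at 6.46 in vehicle mouse 3 of the Col experiment, against 4.23 and -0.04. All 10 of the list's genes present among the gene symbols had counts in each group. Its summed level spanned 5.48 to 1030 CPM in CFA vehicle mice and 17.1 to 1660 CPM in Col vehicle mice. Bone markers were at 5.34 in vehicle mouse 3 of CFA, against -1.22 and 1.14, and at 5.19, 0.54 and 5.15 in the Col vehicle mice. The part of these cells in the members' values was not tested.

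The monocyte and macrophage list (Cd68, Csf1r, Lyz2 and others) was at 2.21 to 3.89 in Col vehicle mice, 4.58 to 6.16 at 2d, 5.50 to 6.44 at 6d and 2.48 to 5.22 at 12d post-10U Col. In summed level this was 104 to 457 CPM in vehicle mice, 533 to 1410 CPM at 2d and 1250 to 2460 CPM at 6d, with no gene of the list at 0. The muscle list was at 12.88 to 13.46 in Col vehicle mice, 11.04 to 12.28 at 2d and 11.60 to 12.41 at 6d. At 12d the macrophage list was highest, at 5.22, in mouse 4, which was also highest for Il1b, Il1rn and Casp1. The neutrophil list was at 2.85 to 4.90 at 2d and at -0.39 to 0.63 at 6d, the days between which Il1r2 fell. Its gene Csf3r, at 6.14 to 10.9 CPM at 6d, stayed within the 3.15 to 41.1 CPM of 2d. In the 1C group the neutrophil list was higher, at 4.57 to 6.50, while Il1r2 was at 1.96 to 3.52 CPM. In CFA mice, mouse 2 at 1d had the lowest macrophage score of its group, 3.20, and the lowest Il1b and Il1rn. Mouse 1 at 1d post-CFA had the highest Il1b, the lowest neutrophil score, 2.62, and the highest Csf3r, 14.5 CPM, of its group. The part of either cell type in the members' changes was not tested.

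**Figure D4:**
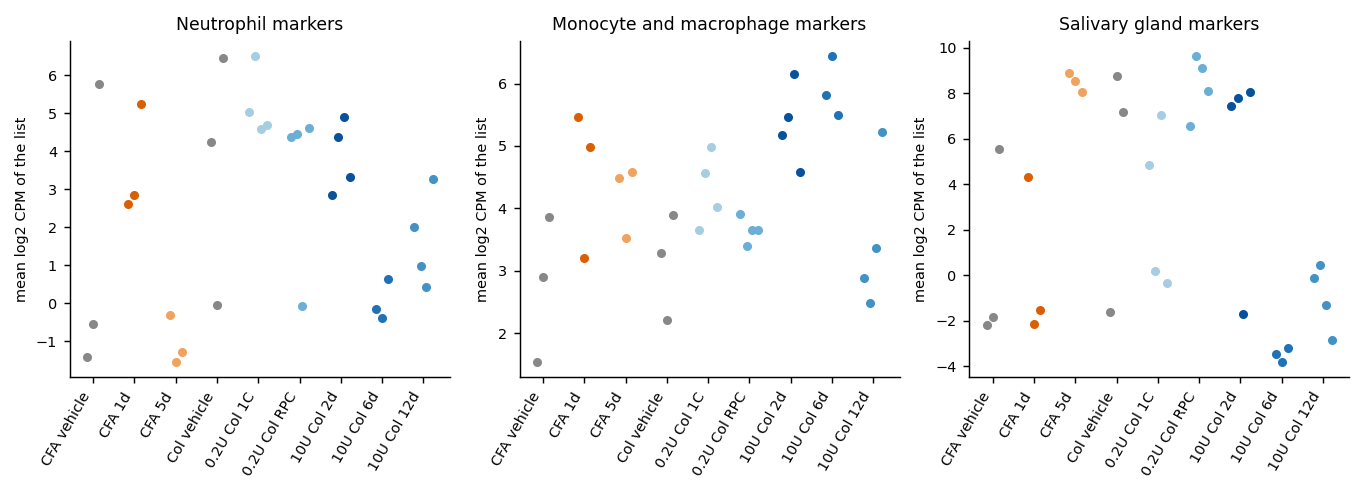
Points are the mean log2 CPM of each marker list in each mouse, by group. In the 3 mice at 6d post-10U Col the neutrophil list was at -0.39 to 0.63 and the macrophage list at 5.50 to 6.44. The salivary gland list varied within most groups.

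By profile over the 31 libraries, the genes nearest to Il1b were Lilrb4, BC055004 and Gpr35, with a mean absolute difference of 0.78 to 0.81 on the log2 scale, where the median over 15526 genes was 1.71. Il1r2 lay nearest to Tuba1c, Inhbb and Slc7a11 (0.65 to 0.71, median 1.26), and Il1rl1 to E2f7, Fam111a and Skp2 (0.34 to 0.37, median 0.97). Il33 lay nearest to Capg, Entpd1 and Gda (0.30 to 0.33) and Il1r1 to Bmp2k, Entpd1 and BC005537 (0.20 to 0.21). Il18 lay nearest to Tcirg1, Gsdmd and Elf4 (0.28 to 0.30), Casp1 to Tnfrsf11a, Eif2ak2 and Sp140 (0.30 to 0.34) and Il1a to I830077J02Rik, Klrb1b and Gmfg (0.73 to 0.76). All libraries enter each distance, so groups, depth and tissue content are shared by every pair.

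Other genes of the pathway passed against vehicle mainly at 6d post-10U Col, where 27.3% of all genes did. Among inflammasome and processing genes 4 of 14 tested rose and 2 fell. Nlrp1b, an inflammasome sensor, was at 2.71 to 5.39 CPM against 0.196 to 0.317 CPM in vehicle mice, where it had 3 to 7 counts, and the DNA sensor Aim2 rose by 1.74 ± 0.52 on the log2 scale (adjusted p = 0.0442). Prtn3, a neutrophil protease, fell by 4.73 ± 1.42 (adjusted p = 0.0442), although its 0.209 to 0.745 CPM at 6d lay within the 0.130 to 25.1 CPM of vehicle mice. The other genes that passed were Casp8 and Gsdmd, which rose, and Txnip, which fell. Nlrp1b is 1 of several near-identical Nlrp1 copies, whose shared reads may have been lost or split.

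Of 17 genes of signal transduction 2 rose, Irak4 by 1.09 ± 0.28 and the adaptor Myd88 by 0.76 ± 0.19, and 1 fell, the p38 kinase Mapk14, by 1.0 ± 0.22. Of 6 tested other receptor chains and decoys 1 rose, Il1rl2, the receptor of IL-36, by 1.25 ± 0.39. None of the other ligands of the family, those of the IL-36 branch, had enough counts to be tested at 6d.

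Of 11 tested genes known to be induced by IL-1, 4 rose and 2 fell at 6d. Ptgs2, the cyclooxygenase of prostaglandin synthesis, rose by 3.52 ± 0.56 (adjusted p = 0.00716), from 0.196 to 0.770 CPM in vehicle mice to 4.15 to 9.42 CPM. Il6 had 10 to 15 counts per mouse against 0 to 2 in vehicle mice. Ptgs2 had 3 to 17 counts in vehicle mice. Nlrp1b, Il6 and Ptgs2 met the count minimum only through the 6d mice, so that their passing is no support for these lists. Lcn2, a lipocalin of neutrophils and stressed epithelia, fell by 6.38 ± 1.39, from 2.28 to 104 CPM to 0.300 to 0.752 CPM. Of 4 tested genes known to be induced by IL-33, 2 fell and none rose, Retnla by 3.91 ± 0.35 (adjusted p = 0.00151), with 1.37 to 3.05 CPM against 26.4 to 36.6 CPM, and the chemokine Ccl24 by 1.5 ± 0.44.

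At 2d post-10U Col 1 of 13 tested genes known to be induced by IL-1 passed, the neutrophil chemokine Cxcl5. It had 13 to 611 counts per mouse (0.488 to 27.1 CPM) against 0 to 2 in vehicle mice, and so was tested only through the mice in which it was high. In the other 5 comparisons with vehicle no gene of these lists passed. When each mouse was left out in turn, the calls of these pathway genes were lost in 55 of 106 fits, and no direction turned. At 1d post-CFA all 11 tested genes of the IL-1 list had values above vehicle (median log2 fold change 0.92, with all genes at -0.01), as did 10 of 13 at 2d post-10U Col (1.65, with all genes at 0.02). Ptgs2, with 3 to 18 counts in CFA and 3 to 17 in Col vehicle mice, was tested in both only through treated mice. These directions are therefore no support for the list.

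**Figure D5:**
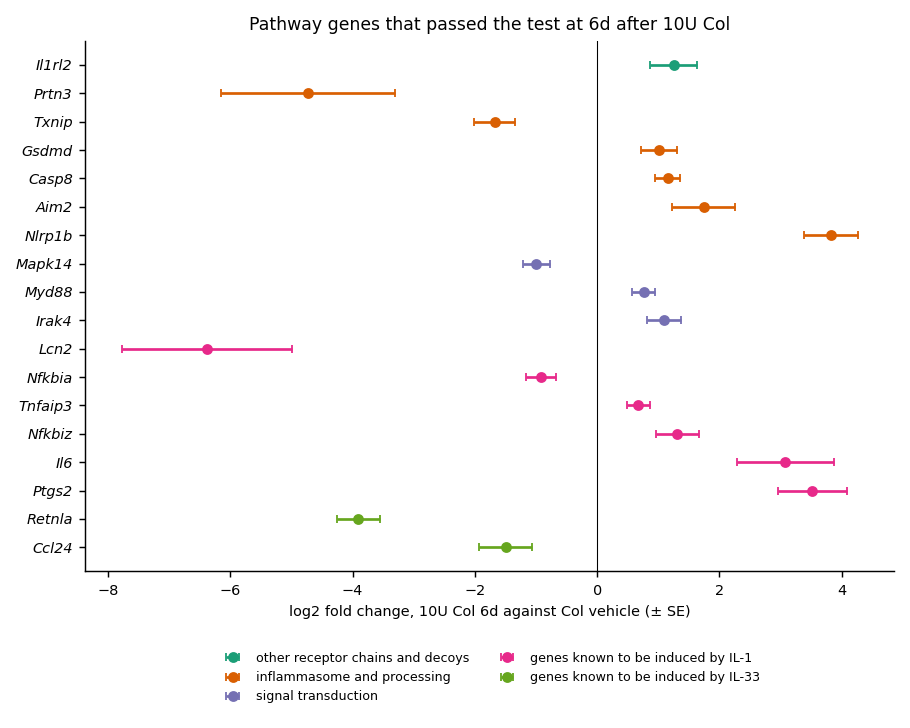
Points are log2 fold changes with SE bars of the 18 genes of the pathway lists that passed at 6d post-10U Col, coloured by list. Nlrp1b and Ptgs2 lay at 3.82 and 3.52, and Retnla and Lcn2 at -3.91 and -6.38. The points of Il6, Nlrp1b and Ptgs2 rest on vehicle libraries with 0 to 2, 3 to 7 and 3 to 17 counts.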

How the data were processed

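RNA of MM was sequenced from poly(A)-selected, stranded libraries as short single-end reads. The authors deposited whole-number counts of reads per gene symbol for each mouse. Per the labels, bcl2fastq, TopHat2, HTSeq and mm9 were used, and versions and the strand setting of counting were not given in the sources used here. Rows for reads that fell on more than 1 gene or on none stayed out of library sizes. Reads on no gene amounted to 6.69 to 22.5% per library.

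Counts were fitted with edgeR 4.0.16 (R 4.3.3) on the libraries of each comparison, with TMM scaling, a minimum of 10 counts in 3 or more libraries, the quasi-likelihood test and Benjamini-Hochberg adjustment over all tested genes. An adjusted p under 0.05 passed. SE was taken as the log2 fold change over the root of the F statistic. CPM in the text were scaled by TMM over 31 libraries, and RPKM divide them by merged exon length in mm9. Alternatives were DESeq2 1.42.0, its size factors, no filter, 1 fit over 31 libraries, marker scores as covariates, a replicate block, vehicle mice of both experiments, the study's fold and RPKM thresholds, and each mouse left out. Scripts were tested on simulated data.

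Each count table held 1 mouse, and groups came from the labels. The vehicle titled as control was taken as that of Col because the other vehicle is titled for CFA. Days are those of the labels, and the study's text names other days for some 10U groups. The labels do not say which of 1C and RPC is the earlier, nor when vehicle mice were collected. Replicate numbers name different animals. Same-numbered mice deviated together in every pair only between 1d post-CFA and CFA vehicle (r of 0.19 to 0.61) and between both vehicles (0.11 to 0.68), where a replicate block changed no call of a member.

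Members and lists were chosen with earlier results of these data known. All 9 members are named, and for each pathway list the genes that passed against vehicle, at most 3 by size per list and comparison. Other names were added after their values were seen. For each member but Il1rn, whose result is not reported here, the 3 genes nearest in profile are named. Each p-value judges a difference between groups against the spread between mice within groups.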

Additional observations from a re-analysis of the deposited data

Results flagged for a closer look

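In groups of 4 mice, 4 of 36 member values had a single mouse set apart, by the gap to its nearest neighbour as a share of the group's range of log2 CPM, where chance alone also sets some apart. The share was 0.941 for the highest mouse of Il1r1, 0.844 for the highest mouse of Il1rl1 and 0.84 for the lowest mouse of Il1a at 12d post-10U Col, and 0.916 for the highest mouse of Il33 in the 1C group. Mouse 4 was the high mouse of Il1r1 and Il1rl1 at 12d, and it had the highest macrophage marker score of its group, 5.22.

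The change after 10U Col differed between days, by direct tests, for Il1r2 between 2d and 6d (-3.25 on the log2 scale) and for Il1b (-2.41), Il1rn (-2.81) and Il1rl1 (-1.21) between 6d and 12d.

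Every mouse at 2d had Il1r2 above the mean of the Col vehicle mice and every mouse at 6d and at 12d had it below, with a difference of mean log2 CPM from 2d of -3.02 at 6d and -4.41 at 12d. Il1a lay above that mean in every mouse at 6d and below it in every mouse at 12d, with a difference of -1.35 on 1 to 12 counts per mouse. These 3 differences were not tested as such.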

How the results depend on the processing

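Of 235 values of members with a fitted change at an unadjusted p under 0.1, recomputed under the named alternatives, 190 kept their side of the threshold, 38 newly passed, 7 no longer passed and 0 turned direction. With single mice left out, 22 of 229 no longer passed and 16 newly passed. Only Il1r2 between 6d and 2d and Il1b, Il1rn and Il1rl1 between 12d and 6d had passed, so only these could stop passing. With 1 mouse left out they passed in 1, 2, 1 and 2 of 7 fits each, in this order. Under the named alternatives they passed in 5, 4, 4 and 4 of 6. The replicate block is a factor for numbers that name different animals. It gave 1 passing member instead of 0 at 5d post-CFA (Il1rn), 5 instead of 0 at 2d post-10U Col, 2 instead of 0 between 5d and 1d post-CFA, 2 instead of 1 between 6d and 2d and 7 instead of 3 between 12d and 6d post-10U Col. DESeq2 gave 4 at 2d, 3 at 6d and 3 between 5d and 1d post-CFA. The fit over 31 libraries gave 4 at 2d, 2 between 5d and 1d post-CFA and 0 between 12d and 6d. With tissue scores as covariates 1 passed at 2d, 0 between 6d and 2d and 0 between 12d and 6d. Vehicle mice of both experiments gave 5 at 2d and 3 at 6d. DESeq2 size factors or no filter gave 1 at 6d, where 27.5% and 21.8% of all genes passed. With 1 mouse left out, the count ranged from 0 to 3 at 5d post-CFA (3 without vehicle mouse 3), 0 to 4 at 2d (4 without mouse 4), 0 to 5 at 6d (5 without vehicle mouse 3), 0 to 3 between 5d and 1d post-CFA (3 without mouse 2 at 1d), 0 to 1 between 6d and 2d and 0 to 6 between 12d and 6d. The share of all genes that passed moved too. At 2d 31.3% of genes passed with the block, 31.8% in the fit over 31 libraries, 34.4% with both vehicles and 36.3% without mouse 4. At 6d 40% passed with both vehicles and 41.7% without vehicle mouse 3. Between 12d and 6d 49.2% passed with the block and 20.7% in the fit over 31 libraries, and 15.6% passed at 5d post-CFA without vehicle mouse 3. With the block 0.927% passed at 5d post-CFA and 15.2% between 6d and 2d. Without mouse 4 at 2d, 28.8% passed between 6d and 2d. Between 5d and 1d post-CFA 5.23% passed with the block, 10.6% with DESeq2, 4.13% in the fit over 31 libraries and 9.63% without mouse 2 at 1d. With tissue scores 26.2% passed at 2d, 1.61% between 6d and 2d and 20.0% between 12d and 6d. The Il1rn to Il1b ratio at 6d ranged from -0.59 to 0.14 with 1 mouse left out, and the other 6 ratios kept their sign. The cause of these changes was not tested. Of 133 values of pathway genes 28 no longer passed under the alternatives. At these depths Il1a, and Il1b in vehicle mice, rest on few counts, and counting intervals were not computed.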
